A study of Solanum tuberosum with 9 samples.

Results

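Of the 25702 potato genes counted in stolons, 48 were chosen here because their transcripts stood higher under nitrogen deficiency than under either conventional or excess nitrogen. Stolons are side shoots that grow below ground and form tubers at their ends. They came from the variety Kexin 13, and the treatment labels call the 3 nitrogen levels AN0 (deficiency), AN1 (conventional supply) and AN2 (excess), with 3 RNA-seq libraries each. All 9 libraries share the variety and the tissue. The labels give no nitrogen dose, plant age or sampling day, nor whether each library is a plant of its own, so any p-value measures only the spread between these libraries.

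Nitrogen is taken up by plants mainly as nitrate or ammonium and is built into amino acids, and plants short of it draw nitrogen from their own proteins. In potato, a high nitrogen supply is known to delay tuber formation. Stolon tips and young tubers also express defence proteins, the pathogenesis-related or PR proteins. Among these are beta-1,3-glucanases, which cut callose and fungal wall glucans, and thaumatin-like proteins of the PR-5 family.

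The choice rested on CPM, the counts of a gene scaled to a library total of 1000000 counts. A mean of at least 5 CPM in AN0 left 13965 genes. In 85 of them, which is 0.609%, the lowest AN0 library held at least 1.5 times the highest of the 6 AN1 and AN2 libraries. AN1 and AN2 differed by less than 0.5 on the log2(CPM + 0.5) scale in 50 of the 85, while AN1 was the higher by 0.5 or more in 27 and AN2 in 8. The rule leaves out 7 genes by name, of which NIR and HPL met the 3 thresholds, and 48 remained. The differences of AN0 from AN1 and from AN2, and the likeness of AN1 and AN2, are therefore how these genes were picked. They are described below and support nothing by themselves.

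Near the thresholds the choice was a matter of small differences. The gap, meaning the lowest AN0 library over the highest of the other 6, was 1.52 for LOC102601310, 1.53 for LOC102578540 and 1.54 for LOC102605428 just inside. It was 1.497 for LOC102582415, 1.496 for LOC102580068 and 1.48 for LOC107061354 just outside. By mean AN0 level, LOC102589598 (5.25 CPM), a gene of the PR-5 family described below (5.81 CPM) and LOC102590246 (6.16 CPM) were just inside, and LOC102590892 (4.21 CPM), LOC102599629 (4.13 CPM) and LOC102596202 (3.84 CPM) just outside. For the distance between AN1 and AN2 on the log2 scale, LOC102601310 (0.49), LOC102578742 (0.48) and LOC102580176 (0.42) were inside, and LOC102580350 (0.51), LOC102577840 (0.53) and LOC102582381 (0.53) outside.

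Library totals ran from 30952622 to 38235348 counts. Transcripts of photosynthesis and tuber storage genes were uneven between libraries. The summed level of 7 photosynthesis genes was 758 CPM in AN0-1, 690 CPM in AN2-3 and 9.58 to 85.1 CPM in the other 7 libraries, in which up to 5 of the 7 genes were at 0. The 6 genes for patatin and protease inhibitors, which mark tuber storage, summed to 8612 CPM in AN0-1, 1886 CPM in AN2-3 and 15985 to 42989.9 CPM in the remaining 7, with none of the 6 at 0 in any library. They did not all move together. The protease inhibitor PIN-II had its highest level of the 9 libraries in AN2-3, at 1018 CPM. Each of the other genes of the 6 had its lowest level there, patatin at 485 CPM. In bulk tissue, more cells of a type and more RNA per cell cannot be told apart.

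All 48 genes matched the RefSeq table of the assembly SolTub_3.0, as 47 protein-coding genes and 1 long non-coding RNA, LOC102602400. Only 2 carry a name beyond a locus number. One is a thaumatin-like gene with RefSeq gene ID 102594304, the only one of the 48 whose symbol begins with PR-5 and called the PR-5 gene here. The other is the glucanase LOC102605428. For the other 46 no role is annotated in the sources used here, and none is given. Lengths of the 48, worked out from the deposited FPKM, ran from 501 to 3596 bases with a median of 1448, against 1752 for the 13965 genes at 5 CPM or more.

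As a group the 48 genes took 0.499%, 0.424% and 0.510% of all counts in the AN0 libraries, against 0.160%, 0.149% and 0.192% in AN1 and 0.170%, 0.179% and 0.124% in AN2. The AN0 shares lay well clear of the other 6. A pair of genes, LOC102586714 and LOC102579479, held 68.7% of these counts in AN0, and without them the shares were 0.172%, 0.152% and 0.126% in AN0 against 0.0394% to 0.0539% elsewhere. The mean AN0 level was 2226 CPM at the most, 20.2 CPM at the median and 5.25 CPM at the least. Mean AN0 level over the mean of the other 6 libraries was 3.78-fold at the median gene and 1.92-fold at the smallest. Set against the other genes at 5 CPM or more on a per-length scale, the level was ordinary, with a median of 17.5 FPKM in AN0 for the 48 and 13.8 FPKM for the 13965.

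**Figure D1:**
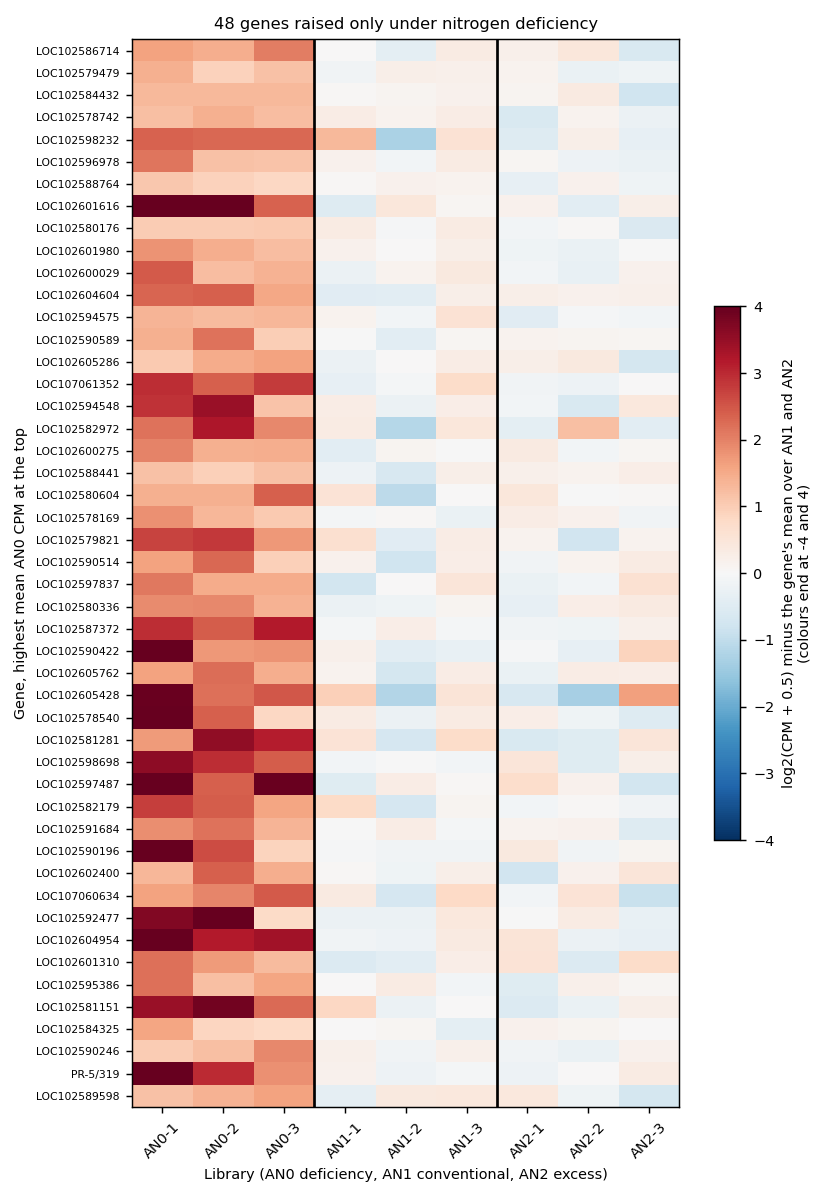
Level of each of the 48 genes (rows, highest mean AN0 CPM at the top) in each library (columns), on the log2(CPM + 0.5) scale, relative to its mean in the 6 libraries of AN1 and AN2, with colours ending at -4 and 4. All 48 rows are red in the 3 AN0 columns, as the rule requires, while the depth of the red differs from gene to gene and between AN0-1, AN0-2 and AN0-3.

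Of the 2 named genes, the PR-5 gene was almost silent outside deficiency. It encodes a protein of the PR-5 family, whose members bind fungal walls and gather in stressed tissue. It stood at 11.8, 4.11 and 1.56 CPM in AN0-1 to AN0-3, against 0.156, 0 and 0.0523 CPM in AN1 and 0, 0.0857 and 0.226 CPM in AN2. Its AN0 libraries were all above the other 6, and AN0-1, the library rich in photosynthesis transcripts, was the highest. AN2-3, the other such library, held the highest level of the 6 at 0.226 CPM. Fold changes and p-values come from edgeR's quasi-likelihood test over all genes, with Benjamini-Hochberg adjustment. Relative to AN2, the log2 fold change was 5.95 ± 1.19 (SE, edgeR adjusted p = 0.0322), and relative to AN1 it was 6.29 ± 1.23 (edgeR adjusted p = 0.137). The call relative to AN2 was kept in 5 of 14 alternative fits, with an adjusted p of up to 0.109 with the replicate number as a block. It was lost without AN0-1, AN0-2, AN1-1, AN1-3, AN2-1, AN2-2 or AN2-3, each left out alone, with adjusted p from 0.0514 to 0.0917. The part of tissue makeup in these values was not tested.

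LOC102605428 has the synonyms tomQb, after a beta-1,3-glucanase known from tomato, and B13G_13. It stood at 25.4, 7.21 and 8.91 CPM in AN0, against 2.77, 0.249 and 1.88 CPM in AN1 and 0.576, 0.171 and 4.68 CPM in AN2. The highest AN0 value was again in AN0-1 and the highest AN2 value in AN2-3, and the gap of 1.54 was among the smallest. The fold changes carried wide errors, 3.04 ± 1.12 relative to AN1 and 3.22 ± 1.13 relative to AN2 (log2 ± SE, edgeR adjusted p = 0.368 and 0.144).

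The other 10 genes named as glucanases did not share this pattern. Of all 11, including LOC102605428, the medians of the log2 fold changes were 0.09 for AN0 against AN1 and 0.19 for AN0 against AN2, beside 0.02 and -0.01 over all 21223 genes tested. In both comparisons 6 of the 11 were positive and edgeR called 0, with 1 and 3 at an unadjusted p under 0.05, while DESeq2 called 0 and 1 higher. LOC102605428, chosen by the rule, was the 1 relative to AN1, 1 of the 3 relative to AN2 and the DESeq2 call. Also among the 3 were GB2, with a log2 fold change of 0.44, and B13G_16 (LOC102594923), with -0.58. Of all genes tested, 10.8% and 20.4% were at an unadjusted p under 0.05 in either direction. DESeq2 called 1.98% and 5.23% of all genes higher, and edgeR 0.0377% and 1.3%. Among them, PdB13G_1 (LOC102583800) stood at 62.4, 51.3 and 57.7 CPM in AN0, against 50.2, 41.0 and 46.9 CPM in AN1 and 62.8, 40.8 and 46.5 CPM in AN2, and AN2-1 was the highest of all 9 libraries. B13G_8 (LOC102599381) stood at 29.7, 51.6 and 60.6 CPM in AN0, against 86.8, 51.3 and 75.01 CPM in AN1 and 88.3, 87.6 and 73.9 CPM in AN2, so AN0 lay below AN2 in every library. Its log2 fold change relative to AN2 was -0.61 (edgeR adjusted p = 0.351). How reads from similar copies were assigned is not given in the sources used here, so single values in this family are uncertain.

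**Figure D2:**
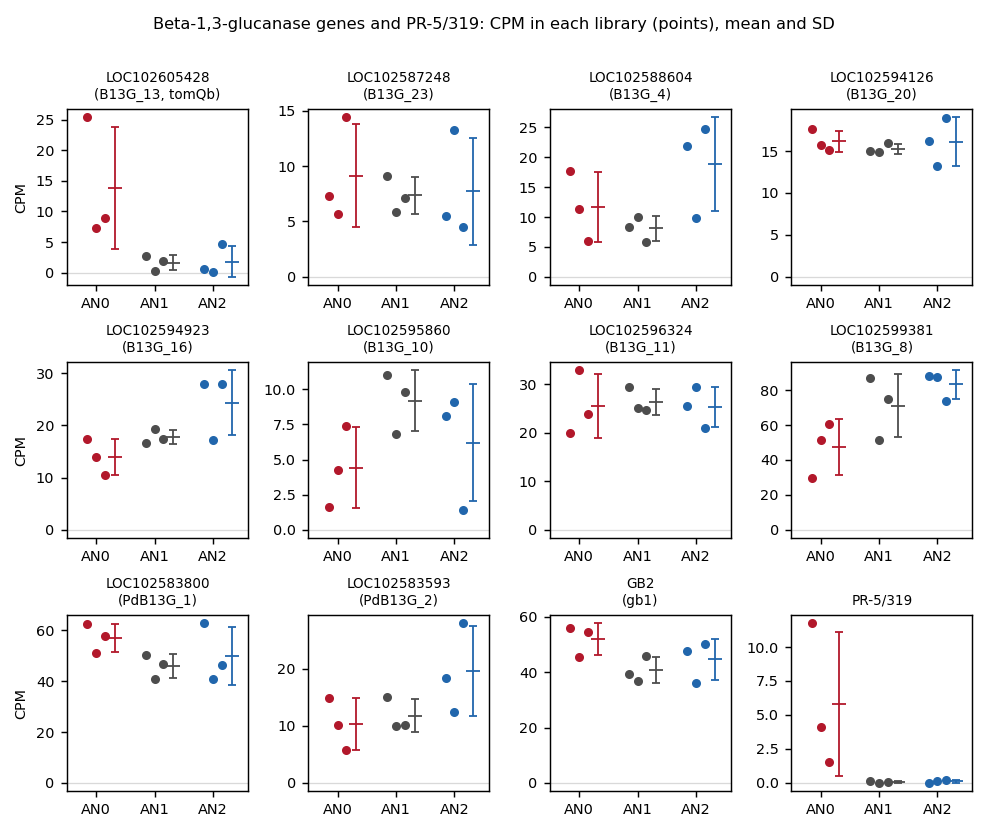
CPM in each library (points) with the mean and SD (bars, n = 3) for 11 genes named as beta-1,3-glucanases and for the PR-5 gene, with AN0, AN1 and AN2 from left to right in each panel. Of the glucanases, LOC102605428 (B13G_13, tomQb) has all 3 AN0 libraries above the rest, at 7.21 CPM or more, as the rule requires. In the other 10 at least 1 AN0 library lies below the highest of the other 6.

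Among 13 other PR and wound-related genes, 12 were tested, the PR-5 gene of the 48 included. The median log2 fold change was 0.78 for AN0 against AN1 with 9 of 12 positive, and 0.05 for AN0 against AN2 with 6 of 12 positive. For AN0 against AN1 edgeR called 0, with 4 at an unadjusted p under 0.05, and DESeq2 called 2 higher. For AN0 against AN2 that PR-5 gene was the 1 gene called higher by edgeR, and DESeq2 called 3. Chosen by the rule, that gene was also among the 4 and the 2 relative to AN1 and the 3 relative to AN2. The second gene of the PR-5 family, PR-5/21, stood at 0.900, 1.22 and 2.05 CPM in AN0, against 0.809, 1.40 and 1.255 CPM in AN1 and 0.0864, 0.171 and 0.678 CPM in AN2. It overlapped between AN0 and AN1 and lay above AN2 in every AN0 library. A chitinase (LOC102577835, ChtA), an enzyme that cuts fungal chitin, stood at 17.4, 8.51 and 9.73 CPM in AN0, against 6.07, 2.30 and 3.69 CPM in AN1 and 6.25, 2.71 and 7.24 CPM in AN2. Its AN0 libraries were all higher than the other 6, with a gap of 1.18 that is too small for the rule. Of the 13965 genes at 5 CPM or more, 452 (3.24%) had every AN0 library above the other 6.

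Sorted by level, 4 of the 48 genes had a mean of at least 100 CPM in AN0, 6 had a mean under 0.5 CPM outside AN0, and 38 lay between. These classes describe the genes and were drawn after their values were seen.

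LOC102586714 was the most abundant, at 2042, 1845 and 2792 CPM in AN0, against 675, 511 and 853 CPM in AN1 and 773, 918 and 443 CPM in AN2. Scaled for length it reached 1967 FPKM in AN0, against 600.5 FPKM in AN1 and 628 FPKM in AN2. Its lowest AN0 library was 2.01 times the highest of the others. The log2 fold change was 1.73 ± 0.42 relative to AN1 (edgeR adjusted p = 0.197) and 1.81 ± 0.42 relative to AN2 (edgeR adjusted p = 0.0512).

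LOC102579479 stood at 1230.2, 882 and 1051 CPM in AN0, against 418, 548 and 526 CPM in AN1 and 510.1, 385 and 407 CPM in AN2. Its AN0 libraries were 2.26-fold higher on average. LOC102584432 was the most even of the 48 within AN0, at 203, 202 and 204 CPM, against 84.7, 88.6 and 93.0 CPM in AN1 and 89.5, 105 and 47.0 CPM in AN2. The highest AN0 library was 1.01 times the lowest. LOC102578742 stood at 153, 181 and 157 CPM in AN0, against 81.2, 73.2 and 82.1 CPM in AN1 and 43.1, 72.8 and 57.2 CPM in AN2. It is among the genes closest to the limit on the distance of AN2 from AN1, which was -0.48 for it.

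Of the 6 genes with a mean under 0.5 CPM outside deficiency, 1 was the PR-5 gene and the other 5 were LOC102604954, LOC102597487, LOC102581151, LOC102592477 and LOC102590196. LOC102604954 had the widest gap of all 48, 11.004, with 13.8, 6.34 and 7.21 CPM in AN0, against 0.187, 0.156 and 0.471 CPM in AN1 and 0.576, 0.143 and 0.0969 CPM in AN2. No library outside AN0 reached 1 CPM. Its log2 fold change was 5.25 ± 0.73 relative to AN2 (edgeR adjusted p = 0.0101) and 5.02 ± 0.72 relative to AN1 (edgeR adjusted p = 0.0618).

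LOC102597487 stood at 18.2, 4.14 and 13.3 CPM in AN0, against 0.124, 0.591 and 0.418 CPM in AN1 and 0.921, 0.485 and 0.0323 CPM in AN2. LOC102581151 stood at 7.93, 10.9 and 3.25 CPM in AN0, against 0.871, 0.156 and 0.288 CPM in AN1 and 0.0288, 0.143 and 0.420 CPM in AN2. In both, every AN0 library was at least 3.73 times the highest of the others.

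The remaining pair of near-silent genes were uneven within AN0. LOC102590196 stood at 29.1, 2.89 and 0.519 CPM in AN0, against 0.0311, 0 and 0 CPM in AN1 and 0.230, 0 and 0.0969 CPM in AN2. These values rest on 1163 counts in the 3 AN0 libraries together, against 1 count in AN1 and 11 in AN2, and the fitted fold change against AN1 is no measure of its size. LOC102592477 stood at 7.59, 20.4 and 0.547 CPM in AN0, against 0.0311, 0.0311 and 0.340 CPM in AN1 and 0.115, 0.286 and 0 CPM in AN2. For both genes AN0-3 was only just above the highest of the other libraries in absolute terms, while AN0-1 or AN0-2 was far above.

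Between these ends lay 38 genes with AN0 means of 5.25 to 89.1 CPM and a median difference of 3.71-fold. LOC102601616 differed most in this class, 19.5-fold, at 121, 69.1 and 20.1 CPM in AN0, against 2.27, 4.92 and 3.71 CPM in AN1 and 3.97, 2.48 and 4.20 CPM in AN2. Its AN0 libraries spread 5.999-fold, with AN0-1 the highest and AN0-3 the lowest. LOC102598232 was even in AN0 at 91.6, 88.1 and 87.4 CPM, against 43.6, 6.94 and 26.4 CPM in AN1 and 11.9, 20.6 and 14.0 CPM in AN2. There the spread was in AN1, where AN1-1 stood far above AN1-2.

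In the other 4 of the 10 most abundant genes the AN0 mean was 1.92 to 2.97 times that of the other 6 libraries. LOC102596978 stood at 108, 55.0 and 54.0 CPM in AN0, against 27.0, 22.2 and 30.3 CPM in AN1 and 25.6, 21.1 and 20.0 CPM in AN2. LOC102601980 stood at 82.8, 65.2 and 55.9 CPM in AN0, against 26.8, 23.7 and 28.0 CPM in AN1 and 20.985, 19.5 and 23.3 CPM in AN2. Both were higher in AN0-1 than in the other AN0 libraries, and in both the 6 other libraries were close together. LOC102588764 had means of 71.2 ± 5.75 CPM in AN0, 39.9 ± 1.90 CPM in AN1 and 34.4 ± 6.37 CPM in AN2 (SD, n = 3 each). LOC102580176 had means of 68.7 ± 0.81 CPM in AN0, 39.0 ± 5.66 CPM in AN1 and 29.1 ± 6.13 CPM in AN2 (SD, n = 3 each). These 2 had the smallest log2 fold changes of the 48 relative to AN1, 0.85 ± 0.24 and 0.83 ± 0.26 (SE), with edgeR adjusted p of 0.246 and 0.299.

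Lower in abundance, LOC102605762 had the smallest of the 10 widest gaps, 2.39, at 12.4, 19.4 and 11.1 CPM in AN0, against 4.20, 2.08 and 4.66 CPM in AN1 and 2.99, 4.65 and 4.52 CPM in AN2. LOC102579821 differed more, 5.97-fold on average, at 26.6, 28.9 and 13.3 CPM in AN0, against 5.94, 2.52 and 4.60 CPM in AN1 and 4.09, 1.91 and 4.04 CPM in AN2. In both genes AN0-2 was the highest library and AN0-3 the lowest of AN0. The long non-coding RNA LOC102602400 had the same library at the top, with 6.75, 14.8 and 7.41 CPM in AN0, against 2.49, 2.08 and 2.93 CPM in AN1 and 1.21, 2.77 and 3.55 CPM in AN2. Its log2 fold change was 1.97 ± 0.49 relative to AN1 and 2.14 ± 0.49 relative to AN2 (SE, edgeR).

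LOC102594575 was even within AN0 at 37.85, 35.7 and 36.6 CPM, against 15.9, 13.3 and 21.8 CPM in AN1 and 10.4, 14.0 and 13.3 CPM in AN2. LOC102588441 was even in AN0 and in AN2, at 26.7, 22.5 and 26.5 CPM in AN0, against 9.86, 7.16 and 13.7 CPM in AN1 and 13.2, 12.7 and 13.9 CPM in AN2. It had the smallest log2 fold change of the 48 relative to AN2, 1.12 ± 0.26 (SE, edgeR). The least abundant of the 48 in AN0, LOC102589598, stood at 4.41, 5.25 and 6.09 CPM in AN0, against 1.21, 2.33 and 2.43 CPM in AN1 and 2.45, 1.43 and 0.840 CPM in AN2. There AN0-3 was the highest, and the edgeR adjusted p was 0.309 relative to AN1 and 0.0541 relative to AN2.

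At an adjusted p under 0.05, 5 of the 48 were called higher in AN0 by edgeR in both comparisons. Over all genes tested, 0.0377% were called higher relative to AN1 and 1.3% relative to AN2. LOC102587372 stood at 16.6, 11.3 and 19.3 CPM in AN0, against 1.59, 2.12 and 1.60 CPM in AN1 and 1.497, 1.43 and 2.04 CPM in AN2. Its groups were far apart, with a gap of 5.36, and it had the smallest adjusted p of the 48, 0.0307 relative to AN1 (log2 fold change 3.17 ± 0.30) and 0.00316 relative to AN2 (3.46 ± 0.30). LOC102598698 stood at 17.4, 11.2 and 7.52 CPM in AN0, against 0.902, 0.996 and 0.889 CPM in AN1 and 1.61, 0.571 and 1.26 CPM in AN2. Its AN1 libraries were almost equal, and the log2 fold changes were 3.68 ± 0.41 and 3.62 ± 0.40 relative to AN1 and AN2 (edgeR adjusted p = 0.0418 and 0.00546).

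LOC107061352, a short gene of 516 bases, stood at 36.2, 24.1 and 32.03 CPM in AN0, against 3.24, 3.98 and 7.35 CPM in AN1 and 3.77, 3.57 and 4.26 CPM in AN2. LOC102604604 stood at 48.7, 51.5 and 28.1 CPM in AN0, against 6.72, 6.91 and 11.1 CPM in AN1 and 11.2, 10.5 and 10.9 CPM in AN2. LOC102600275 stood at 35.0, 23.5 and 24.3 CPM in AN0, against 6.22, 9.34 and 8.395 CPM in AN1 and 11.2, 7.82 and 9.11 CPM in AN2. In these 3 genes the AN0 spread was at most 1.83-fold, and the log2 fold changes relative to AN1 were 2.67 ± 0.33, 2.38 ± 0.30 and 1.79 ± 0.23, each with edgeR adjusted p = 0.0418. Relative to AN2 they were 3.19 ± 0.34, 2.17 ± 0.30 and 1.76 ± 0.23 (edgeR adjusted p = 0.00493, 0.0101 and 0.00904). Relative to AN1, each of the 5 calls was kept in 5 or 6 of 14 alternative fits. Relative to AN2, 4 of them were kept in all 14 and that of LOC102604604 in 13, without AN2-1 being the exception at an edgeR adjusted p of 0.0503.

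**Figure D3:**
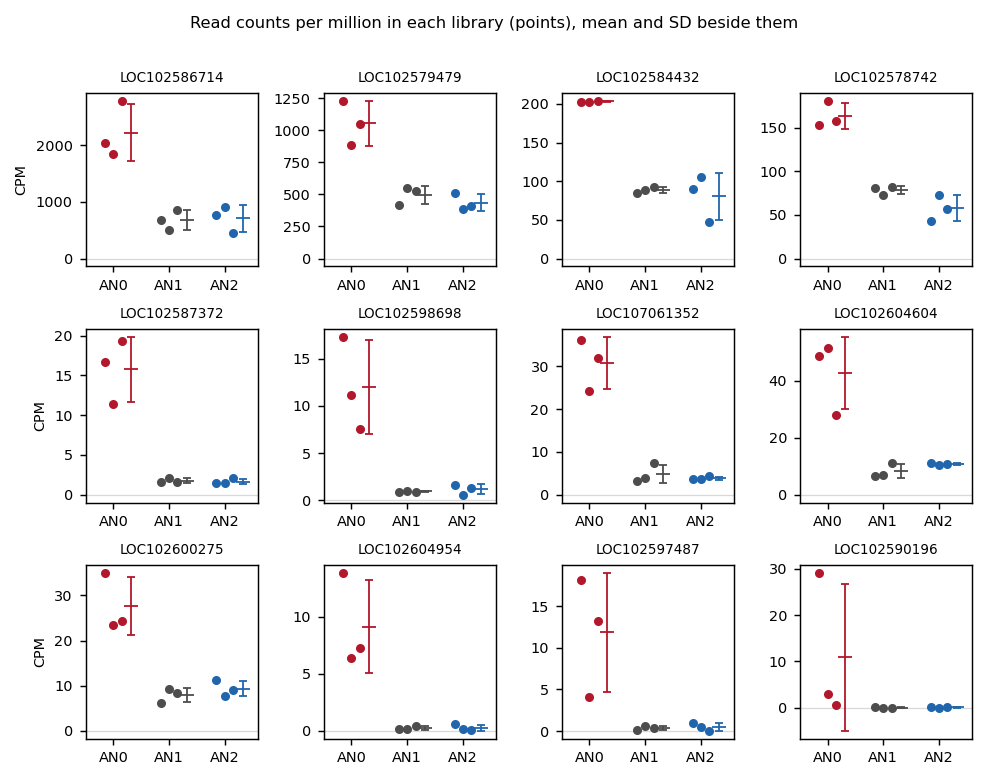
CPM in each library (points) with the mean and SD (bars, n = 3) for 12 of the 48 genes: the 4 most abundant (top), the 5 called by edgeR in both comparisons and 3 with under 0.5 CPM outside deficiency. AN0, AN1 and AN2 run from left to right in each panel, and LOC102584432 has AN0 points between 202 and 204 CPM while those of LOC102590196 run from 0.519 to 29.1 CPM.

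All 48 genes passed the filter on low counts and were tested with the other 21175 genes that passed it. For AN0 against AN1 edgeR called 5 of the 48, beside 8 calls in that direction over all genes, 0.0377%. For AN0 against AN2 it called 38 of the 48, beside 276 calls over all genes, 1.3%. DESeq2 called 42 and 48 of them, beside 1.98% and 5.23% of all genes. Since the rule picked the genes by these same differences, the high shares follow from the choice. The 2 comparisons share the AN0 libraries, and their medians over the 48 genes were 1.96 against AN1 and 2.13 against AN2 on the log2 scale, beside 0.02 and -0.01 over all genes.

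The number called moved with single libraries. Relative to AN1, leaving out AN0-3 gave 15 calls, AN2-3 gave 10 and AN2-2 gave 2, while leaving out any one of AN2-1, AN1-3, AN1-2, AN1-1, AN0-2 and AN0-1 gave 0. Relative to AN2 the 38 became 8 without AN2-1, 11 without AN0-2, 19 without AN1-3 or AN2-3, 22 without AN0-1 or AN1-1, 31 without AN1-2, and 33 without AN0-3 or AN2-2. Calls over all genes moved too, from 0 to 96 relative to AN1 and from 33 to 399 relative to AN2. The median fold change of the 48 stayed between 1.85 and 2.11 relative to AN1 and between 2.00 and 2.28 relative to AN2 on the log2 scale in these fits. Without AN0-1 and AN2-3 together the counts were 0 and 16, beside 0 and 111 calls over all genes, and the medians 1.99 and 2.02.

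**Figure D4:**
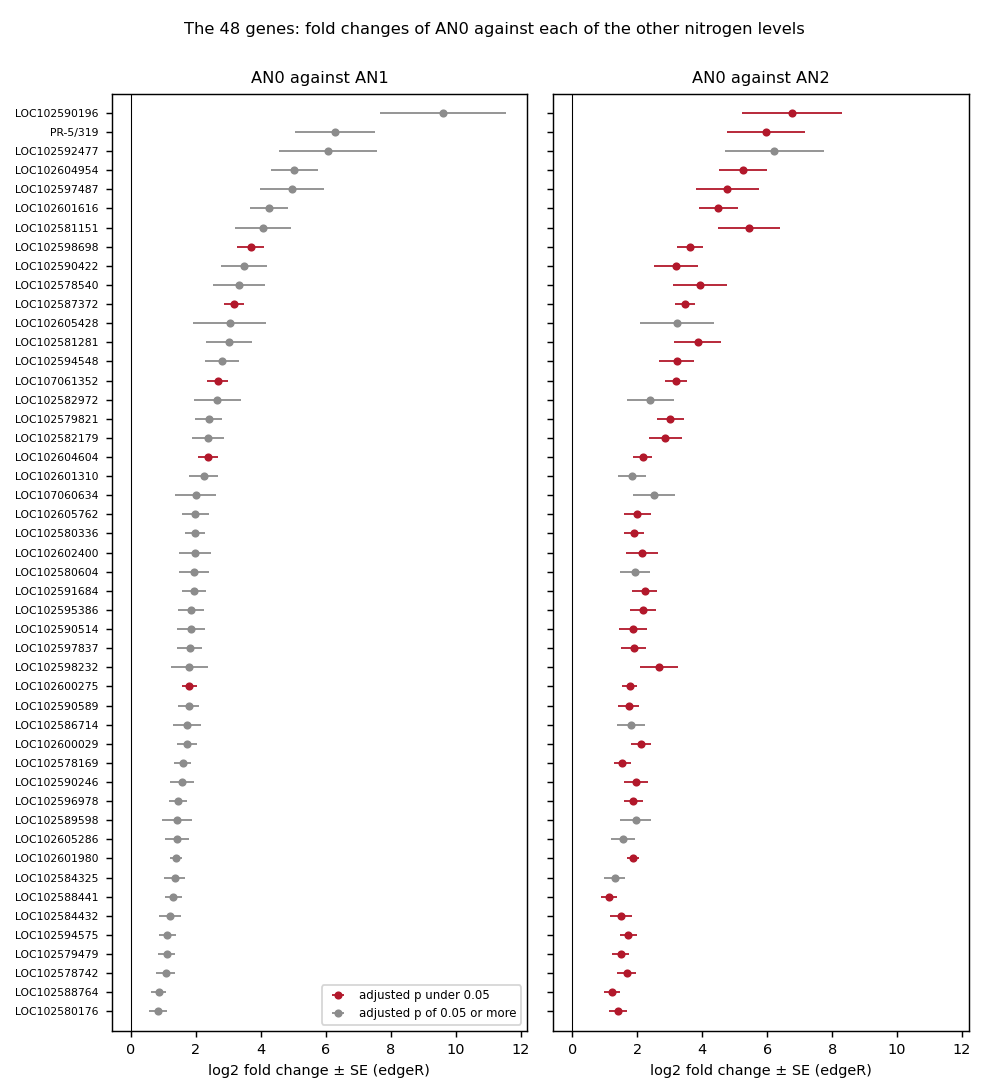
Log2 fold change (points) with its standard error (bars) from edgeR for each of the 48 genes, AN0 against AN1 (left) and AN0 against AN2 (right), with genes in the order of the left panel and calls at an adjusted p under 0.05 in red. There are 5 red points on the left and 38 on the right, and genes with the largest values have the longest bars. The value of LOC102590196 against AN1 rests on 1 count in AN1 and depends on how the fit treats it.

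Between AN2 and AN1, whose likeness was part of the rule, edgeR and DESeq2 called 0 of the 48, with 2 at an unadjusted p under 0.05, beside 0.697% and 5.37% of all genes called in either direction. Scaling mattered here. On CPM by column sums, which the rule uses, the median difference over all tested genes was 0.17 for AN2 minus AN1 and -0.20 for AN0 minus AN2 on the log2 scale. With TMM-scaled CPM these were -0.0048 and -0.014. For the 48 genes the median of AN2 minus AN1 was -0.08 by column sums, with 28 lower in AN2, and -0.23 with TMM scaling, with 31 lower. The largest distances with TMM scaling were -0.67 and 0.32, so some genes then pass the limit of 0.5.

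Within AN0 the 48 genes differed widely in how even they were. The highest AN0 library was under 1.5 times the lowest in 13 genes, 1.5 to 3 times in 24 and at least 3 times in 11, with a median of 1.98, beside 1.71 for the 13965 genes at 5 CPM or more. Spread was widest in LOC102590196 (56.1-fold), LOC102592477 (37.3-fold) and LOC102578540 (12.9-fold). LOC102578540 stood at 28.9, 7.71 and 2.24 CPM in AN0, against 1.46, 0.809 and 1.46 CPM in AN1 and 1.35, 0.885 and 0.582 CPM in AN2. AN0-1 was the highest of its AN0 libraries, and AN0-3 was near the rest.

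AN0-1 was the highest AN0 library in 25 of the 48 genes (52.1%), beside 50.5% of the 13965 genes. AN0-2 was the highest in 14 (29.2%, beside 18.1%) and AN0-3 in 9 (18.8%, beside 31.5%). The order AN0-1, AN0-2, AN0-3, which the summed photosynthesis genes followed at 758, 83.8 and 20.9 CPM, was seen in 13 genes (27.1%), beside 39.1% of the 13965. AN0-1 was at least 2 times both other AN0 libraries in 6 genes and AN0-2 in 3, while AN0-3 was in 0 of the 48. LOC102590422 is among the first, at 32.5, 6.07 and 6.37 CPM in AN0, against 1.80, 0.965 and 1.12 CPM in AN1 and 1.41, 1.09 and 3.17 CPM in AN2. LOC102594548 had its peak in AN0-2, at 32.3, 48.7 and 9.40 CPM in AN0, against 4.95, 3.27 and 4.81 CPM in AN1 and 3.63, 2.40 and 5.52 CPM in AN2. LOC102581281 was instead lowest in AN0-1, at 4.98, 19.1 and 14.4 CPM in AN0, against 1.96, 0.560 and 2.30 CPM in AN1 and 0.605, 0.714 and 1.87 CPM in AN2.

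Genes much raised in AN2-3 could not enter the 48, because the rule caps the highest of the 6 AN1 and AN2 libraries. The levels of AN2-3, the library with photosynthesis genes at 690 CPM, therefore only describe the genes chosen. Relative to each gene's mean over the 6, the median of the 48 was 0.06 on the log2 scale in AN2-3, while the other 5 ran from -0.16 to 0.25. It was 2.03, 2.06 and 1.48 in AN0-1, AN0-2 and AN0-3. AN2-3 was the highest of the 6 in 10 of the 48 genes, as was AN2-1, and AN1-3 in 11.

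Membership itself also moved with the libraries. With CPM scaled by TMM or by DESeq2's size factors the rule gave 57 and 58 genes, 41 of the 48 in each case. The 7 lost under both scalings were LOC102578742, LOC102598232, LOC102580176, LOC102594575, LOC102605286, LOC102579821 and LOC102581281. Without AN0-1 there were 75 genes, without AN0-3 128 and without AN2-3 78, and 45, 46 and 44 of the 48 were among them. Without AN0-1 and AN2-3 together 117 genes met the rule, 41 of the 48 among them. Leaving out a library cannot narrow a gene's gap, so there only the AN0 mean or the AN1 to AN2 distance could drop a gene. Keeping most of the 48 without a library therefore follows in part from the rule. In all, 25 of the 48 met the rule under each of 12 changes of scaling or libraries, among them 4 of the 5 genes called in both comparisons, LOC102586714, LOC102579479, LOC102584432, LOC102604954 and LOC102597487. LOC102604604, the fifth of those called, met it under 11. The PR-5 gene and LOC102605428 were not among the 25.

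The same thresholds turned round gave 214 genes with AN2 as the raised group and 4 with AN1. For genes lower in AN0 than in all 6 others by the same margin there were 26. The AN0 genes and the AN2 genes had like gaps, 1.91 and 1.94 at the median, and like spreads within the raised group, 1.98-fold and 1.87-fold. In the AN2 genes AN2-3 was the highest AN2 library in 148 of 214, and the share over all genes was not worked out. All these counts use CPM by column sums. On that scale the median over all tested genes was 0.17 for AN2 minus AN1 and -0.20 for AN0 minus AN2 (log2). The part of this shift in the counts was not tested. No test was made of the differences between these groups of genes.

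Of the genes named for nitrogen assimilation or the lipoxygenase pathway, 3 are set beside the 48 here. NIR, for nitrite reductase, which makes ammonium from nitrite, stood at 12.7, 8.06 and 2.596 CPM in AN0, against 1.03, 0.622 and 0.209 CPM in AN1 and 0.489, 0.400 and 0.840 CPM in AN2. HPL, for a hydroperoxide lyase, which cleaves the products of lipoxygenases, stood at 28.0, 22.4 and 21.3 CPM in AN0, against 9.15, 7.22 and 8.97 CPM in AN1 and 9.56, 6.74 and 10.6 CPM in AN2. Both met every threshold and were left out by name. A divinyl ether synthase of the lipoxygenase pathway, LOC102588225, stood at 85.2, 74.1 and 221 CPM in AN0, against 12.3, 17.6 and 29.4 CPM in AN1 and 21.7, 17.8 and 0.323 CPM in AN2. Its gap was 2.52, but the AN2 minus AN1 distance was -1.46 on the log2 scale, with AN2-3 far below the other 5 libraries of AN1 and AN2.

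NR3, for a nitrate reductase, and LOC102602192, for a lipoxygenase, were also left out by name and had gaps of 4.19 and 2.09, but AN2 minus AN1 was -1.07 and -1.25. LOC102588954, for a fructose-1,6-bisphosphatase, had a gap of 2.05 and an AN2 minus AN1 of -0.70. VPE2 and LOC102597666 had gaps of 1.42 and 0.461, too small for the rule.

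The lists of named genes are read against the shares of all genes. Relative to AN1 these were 10.8% at an unadjusted p under 0.05, 1.98% called higher by DESeq2 and 0.0377% by edgeR. Relative to AN2 they were 20.4%, 5.23% and 1.3%. Over the 8 named genes of nitrogen uptake and assimilation, edgeR called 0 in AN0 against AN1 (5 at an unadjusted p under 0.05, 3 higher by DESeq2). In AN0 against AN2 it called 2 higher (2 at an unadjusted p under 0.05, 2 higher by DESeq2). The medians were 1.10 and 0.39. In the lipoxygenase and jasmonate list of 9 it called 0 in AN0 against AN1 (6 at an unadjusted p under 0.05, 3 higher by DESeq2). In AN0 against AN2 it called 2 higher (6 at an unadjusted p under 0.05, 6 higher by DESeq2), and the medians were 1.503 and 1.64. Of 15 tested starch and sucrose genes edgeR called 0 in AN0 against AN1 (5 at an unadjusted p under 0.05, 2 higher by DESeq2). In AN0 against AN2 it called 2 higher (7 at an unadjusted p under 0.05, 5 higher by DESeq2), and the medians were 0.47 and 1.27. The other 11 lists hold 52 tested genes and none of the 48. In them VPE2, a vacuolar processing enzyme, was called higher in both comparisons. The auxin-response gene IAA2 was called lower in AN0 than in AN2. These lists hold genes with known names and so say little of the 46 genes known by number.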

How the data were processed

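RNA was sequenced from 9 stolon libraries, 3 per nitrogen level. The authors deposited raw read counts per gene and FPKM values, which divide counts by gene length and library size. Tools listed in the submitters' processing notes are DESeq2, HTSeq, HISAT2, fastp and R 3.2.0. The sources used here name no genome build, annotation or strand setting. The deposited FPKM equal the counts divided by length and column sum, within a relative difference of 1.71e-07. FPKM was used only for lengths and for levels between genes.

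CPM was computed from column sums. Counts were tested with edgeR 4.0.16 in R 4.3.3 (TMM, filterByExpr leaving 21223 genes, quasi-likelihood test, a mean per treatment, all 9 libraries in 1 model, Benjamini-Hochberg adjustment over all tested genes). The script was tested on simulated data. DESeq2 1.42.0, other scalings, no filter, a replicate block and leaving out libraries were the alternatives. Gene names came from the RefSeq table of SolTub_3.0, which matched 25672 of 25702 identifiers. No coordinates, promoters or proteins were analysed here, so the planned motif search was not made.

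The genes, the 16 lists of named genes and the tests were chosen with earlier results of these data known. Lists were filled by hand from symbols and synonyms. The text names genes with a symbol or synonym, the 10 most abundant, the 10 with the widest gap, those beside each threshold, those called in both comparisons and the genes left out by name. LOC102578540, LOC102590196, LOC102590422, LOC102592477, LOC102594548, LOC102594575, LOC102579821, LOC102588441 and LOC102581281 were named after their values were seen, and LOC102602400 as the only non-coding RNA.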

Additional observations from a re-analysis of the deposited data

How the results depend on the processing

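The count of 48 genes became 90 with a smaller gap than 1.5 times and 19 with a gap of 2 times, 75 with a mean AN0 level of at least 1 CPM, 80 with no limit between AN1 and AN2, and 117 without AN0 replicate 1 and AN2 replicate 3. Leaving out 1 library at a time gave 47 to 128 genes. Such a change can widen a gene's gap but never narrow it, so more genes can reach 1.5 times. Calls higher in AN0 than AN1 were 5 with all libraries and ranged from 0 to 15 with 1 library left out. They were 0 without AN0 replicate 1 and AN2 replicate 3, and 42 by DESeq2. In the same order, 0.0377%, 0% to 0.443%, 0% and 1.98% of all genes were called. Calls higher in AN0 than AN2 were 38 with all libraries and ranged from 8 to 33 with 1 library left out. They were 16 without those 2 libraries and 48 by DESeq2. In the same order, 1.3%, 0.153% to 1.84%, 0.521% and 5.23% of all genes were called. Apart from the widening of gaps, the cause of these changes was not tested. With the replicate number as a block the calls were 0 and 12, beside 0% and 0.198% of all genes. Same-numbered libraries of different treatments had correlations of deviations from -0.472 to 0.083, with 0 of 9 pairs over 0.1, so the numbers were not taken to pair the libraries. The median fold changes of the 48 genes kept their direction and moved by less than the spread between AN0 libraries in all 42 alternatives run. For AN0 against AN1 and AN0 against AN2 the direction follows from the rule, so keeping it supports nothing. The 42 also cover AN2 against AN1, whose likeness was part of the rule. Of 588 single-gene values recomputed for 21 of the 48 genes, all from the AN0 comparisons, 0 changed sign, 124 lost their call and 24 gained one. The sign of these values follows from the rule, so the 0 supports nothing. With 3 libraries a group, the low levels outside AN0 rest on few counts, down to 0 in 3 of the 48 genes.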
